A study of Mus musculus with 13 samples.

Results

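The genes that encode the signal-transducing chains of the T cell receptor (TCR) and the first kinases, adaptors and enzyme it engages were examined in bulk RNA-seq libraries of Treg cells and Treg “wannabes”. The set was fixed as a list of 9 symbols, *Cd3d*, *Cd3e*, *Cd3g*, *Cd247*, *Lck*, *Zap70*, *Lat*, *Lcp2* and *Plcg1*, each of which matched 1 gene in both count tables, so that the set holds 9 of 24417 genes under a rule that uses no measured level. The list itself was chosen with earlier results of these data known. The study asked whether Treg cells that regain Foxp3, the transcription factor that defines them, are functional in mice with established inflammation. Its *Foxp3*LSL allele carries a Thy1.1 reporter and STOP cassette between loxP sites ahead of a *Foxp3*-GFP reporter, so that a cell that would have become a Treg cell, a “wannabe”, expresses Thy1.1 and no functional Foxp3 until Cre removes the cassette. The 5 groups make up the 13 libraries, all from C57BL/6 mice. The 8 male libraries hold control Treg cells of Foxp3DTR-GFP/yCd4creERT2 mice (n = 3), rescued Treg cells of Foxp3LSL/yCd4creERT2 mice (n = 3) and “wannabes” of Foxp3LSL/yCd4wt mice (n = 2), each given 4-hydroxytamoxifen on postnatal day 14 and analysed at day 21. The 5 female libraries hold resting “wannabes” of Foxp3LSL/WTCd4wt mice (n = 3) and activated “wannabes” of Foxp3LSL/DTRCd4wt mice (n = 2), aged 9 to 11 weeks, all given diphtheria toxin on days 7, 5, 3 and 1 before analysis. *Foxp3* is X-linked, so female heterozygotes are mosaics, and the toxin removes the Foxp3-sufficient Treg cells only where the other allele carries DTR, the diphtheria toxin receptor. In the male mice the drug-inducible Cre is tied to *Cd4*, so recombination is not limited to “wannabes”, and both Treg groups carry this allele while male “wannabes” do not. Cells from spleen and lymph nodes were sorted as TCRβ+CD4+CD8-NK1.1- and by Foxp3 or Thy1.1 reporter, which means that every cell sequenced had been selected for surface TCR.

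TCR α and β chains bind antigen but have almost no cytoplasmic tail. They are carried to the surface and connected to the cell's interior by the CD3 chains γ, δ and ε, encoded by *Cd3g*, *Cd3d* and *Cd3e*, and by the ζ chain, encoded by *Cd247*, all of which hold the tyrosine motifs known as ITAMs. The Src-family kinase Lck, which docks to the CD4 coreceptor, phosphorylates the ITAMs. The kinase ZAP-70, encoded by *Zap70*, then binds them and phosphorylates the adaptors LAT and SLP-76 (*Lcp2*), on which phospholipase Cγ1 (*Plcg1*) is assembled to produce the second messengers that open calcium channels and activate protein kinase C and Ras. In Treg cells, TCR signals are needed for thymic commitment and for suppressor function in the periphery.

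The 3 CD3 genes lie next to each other on chromosome 9 of GRCm38 (GENCODE M21): *Cd3g* at chr9:44969572-44980431 on the minus strand, *Cd3d* at chr9:44981786-44987339 on the plus strand and *Cd3e* at chr9:44998740-45009627 on the minus strand. *Cd3g* and *Cd3d* point away from each other across a gap of 1354 bases, and 11400 bases separate *Cd3d* from *Cd3e*. *Cd247* lies apart from them at chr1:165788681-165877277 on the plus strand of chromosome 1, which also carries *Zap70* (chr1:36761798-36782818, plus). *Lck* is at chr4:129548344-129573641 (minus), *Lat* at chr7:126363824-126369570 (minus), *Lcp2* at chr11:34046920-34092295 (plus) and *Plcg1* at chr2:160731300-160775760 (plus). The 250 bases before the RefSeq start (GRCm38.p6) of these 4 genes are shown 5′ to 3′ along the gene's own strand, because *Cd3e* and *Cd247* were the members that passed edgeR's test with all libraries kept, while *Cd3d* and *Cd3g* are their nearest partners in the complex. The regions are chr9:45009612-45009861 (minus strand) for *Cd3e*, chr1:165788431-165788680 (plus) for *Cd247*, chr9:44981536-44981785 (plus) for *Cd3d* and chr9:44980432-44980681 (minus) for *Cd3g*. Capitals mark AGGAAG or its reverse complement CTTCCT, a core sequence bound by ETS-family factors, which are abundant in T cells.
Cd3e: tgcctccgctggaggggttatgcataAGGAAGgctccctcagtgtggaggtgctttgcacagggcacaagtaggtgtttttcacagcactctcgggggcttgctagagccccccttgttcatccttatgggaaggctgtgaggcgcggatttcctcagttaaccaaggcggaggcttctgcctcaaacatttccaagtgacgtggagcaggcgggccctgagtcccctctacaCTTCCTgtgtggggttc
Cd247: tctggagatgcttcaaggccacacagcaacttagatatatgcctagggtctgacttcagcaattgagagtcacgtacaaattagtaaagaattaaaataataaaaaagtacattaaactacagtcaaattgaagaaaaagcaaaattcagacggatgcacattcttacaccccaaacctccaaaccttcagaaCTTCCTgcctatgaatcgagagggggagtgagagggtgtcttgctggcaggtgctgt
Cd3d: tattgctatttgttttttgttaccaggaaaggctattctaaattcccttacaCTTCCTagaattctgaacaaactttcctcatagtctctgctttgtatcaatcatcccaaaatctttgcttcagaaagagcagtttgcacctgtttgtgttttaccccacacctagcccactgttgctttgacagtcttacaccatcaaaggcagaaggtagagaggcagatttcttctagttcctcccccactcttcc
Cd3g: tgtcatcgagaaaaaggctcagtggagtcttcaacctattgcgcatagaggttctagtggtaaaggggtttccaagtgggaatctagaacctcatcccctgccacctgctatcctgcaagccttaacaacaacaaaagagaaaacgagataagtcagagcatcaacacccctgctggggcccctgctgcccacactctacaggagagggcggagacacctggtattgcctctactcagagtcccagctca
The letters occur at 2 places in the *Cd3e* window, at 1 in the *Cd247* window and at 1 in the *Cd3d* window, and not in the *Cd3g* window. All 9 genes matched the RefSeq promoter table, with 12 start sites between them, and 9 of these 12 windows (75.0%) held the ETS core on either strand against 29.5% of 32851 promoter windows of the same length. A RUNX-type sequence, TGNGGT on either strand, was in 6 of 12 windows against 40.1% of all, and an E-box, CANNTG, was in 11 of 12 (91.7%) against 66.2%. An E-box is the site type of helix-loop-helix factors, RUNX factors are needed for T cell development. These are matches of letters only.

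All 9 genes were abundant in every library. Together they took 0.497% to 0.675% of the counts, which totalled 25558402 to 36660933 per library, and each passed the filter on low counts in every fit. Of 24417 genes ranked by normalized count (TMM-scaled), *Lck* was between 18th and 29th in each group, and *Plcg1*, the lowest of the set among male “wannabes”, was 2534th there. Per kilobase of merged exons, *Lck* was the highest member in all 5 groups, at 539 to 648 CPM per kb as group means (CPM are counts scaled to one common library total), and its libraries did not overlap those of the next member in any group. *Plcg1* was the lowest in all 5, at 12.8 to 39. In control Treg cells *Cd3d* (253), *Cd3g* (214) and *Cd3e* (193) were neighbours in the order with overlapping libraries. *Lcp2* (156), *Lat* (136), *Cd247* (112) and *Zap70* (50.6) followed, each without overlap with the one before. The CD3 genes were also neighbours with overlapping libraries in rescued Treg cells and male “wannabes”. In rescued Treg cells *Cd3e* overlapped *Lcp2* as well. As group means, the ζ chain gene had a lower level per length than each of the 3 CD3 genes in all 5 groups. Its divisor was 5329 bases, of which 3007 overlap exons of *Pou2f1*. In normalized counts, not divided by length, *Cd247* lay above *Cd3d* as group means except in male “wannabes”. The means were 19533 and 15057 in control Treg cells and 15844 and 17092 in male “wannabes”. In resting “wannabes” the order below *Lck* was *Cd3e* (278), *Lat* (256) and *Cd3d* (227), neighbours whose libraries overlapped, then *Cd3g*, *Lcp2*, *Zap70* (143) and *Cd247* (94.6).

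**Figure D1:**
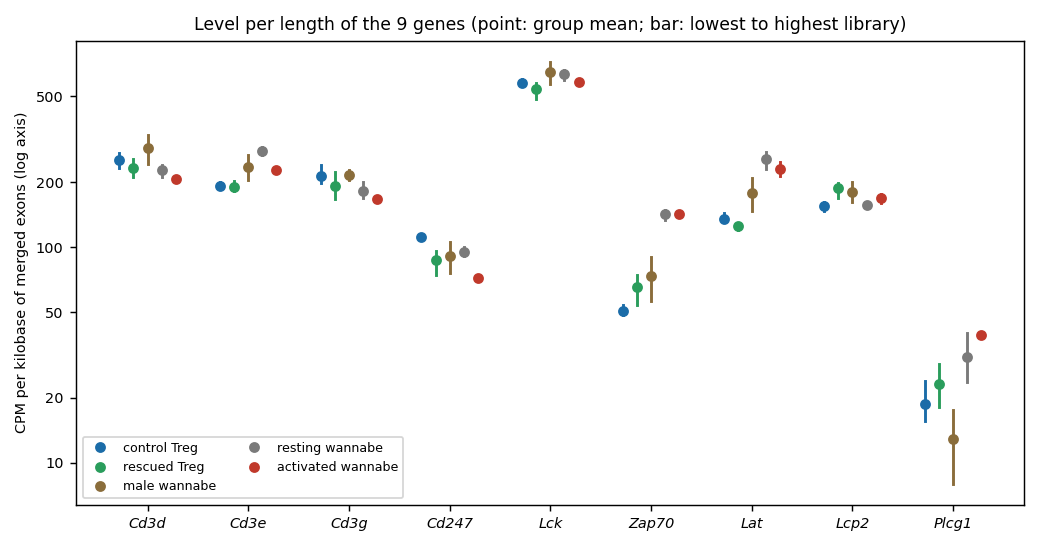
Level per length, in CPM per kilobase of merged exons on a log axis, of the 9 genes in the 5 groups; points are group means (n = 3, 3, 2, 3 and 2 libraries) and bars run from the lowest to the highest library. *Lck* was highest and *Plcg1* lowest in every group, and *Zap70* lay at 48.6 to 54.1 in control Treg libraries and 134 to 149.5 in resting “wannabe” libraries.

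*Zap70* and *Lat* stood lower in the male than in most of the female libraries. *Zap70* had 4772 to 5307 normalized counts in control Treg libraries, 5275 to 7301 in rescued Treg libraries and 5529.9 to 8879 in male “wannabes”, against 11923 to 13276 in resting and 12564 to 12792 in activated female “wannabes”. The 8 male libraries all lay below the 5 female ones for this gene. *Lat* had 11857 to 13084 normalized counts in control Treg, 10935 to 11756 in rescued Treg and 13404 to 18915 in male “wannabe” libraries, against 18997 to 22700.4 in resting and 17484 to 20483 in activated female “wannabes”. In these normalized counts only male “wannabe” replicate 2 reached the female range. In log2 CPM it stood at 9.171 and the lowest female library at 9.202, so that no male library did. Levels were scaled within each experiment. Sex, age and drug differ between the experiments and cannot be told apart, so levels were not tested across them.

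The RNA comes from bulk sorted cells, in which fewer cells of a type and less RNA per cell cannot be told apart. *Foxp3* was highest in the libraries labelled as Treg cells, with 5466 to 8282 normalized counts in control Treg, 28404 to 36479.7 in rescued Treg and 2759.8 to 3280.5 in male “wannabe” libraries, and 1995 to 2224 in resting and 1570.0 to 1731 in activated “wannabes”. *Cd4* was present in every library (12821 normalized counts or more). *Trac*, *Trbc1* and *Trbc2*, the constant regions of the TCR chains, were not analysed here. Markers of other cells were present to differing degrees. Of the B cell markers, *Ms4a1* stood at 12.6 normalized counts or fewer in every library, while *Cd79a* had 58 to 336 and *Cd79b* 223 to 1246. Of the myeloid markers, *Cd14* was at 0 in all control Treg, male “wannabe” and activated “wannabe” libraries, while *Itgam* had 107 to 341 in control Treg libraries. Of the NK cell markers, *Ncr1* was at 0 in all control Treg, male “wannabe” and resting “wannabe” libraries, while *Klrb1c* had 151 to 225 in male “wannabes”. The kit used, SMART-Seq v4, amplifies full-length cDNA without keeping its strand, so reads of overlapping genes cannot be told apart: 3007 exonic bases of *Cd247* overlap exons of *Pou2f1* on the other strand, 379 of *Plcg1* overlap *Zhx3*, 282 of *Lcp2* overlap 4930469K13Rik and 135 of *Cd3e* overlap the antisense gene Gm48719.

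**Figure D2:**
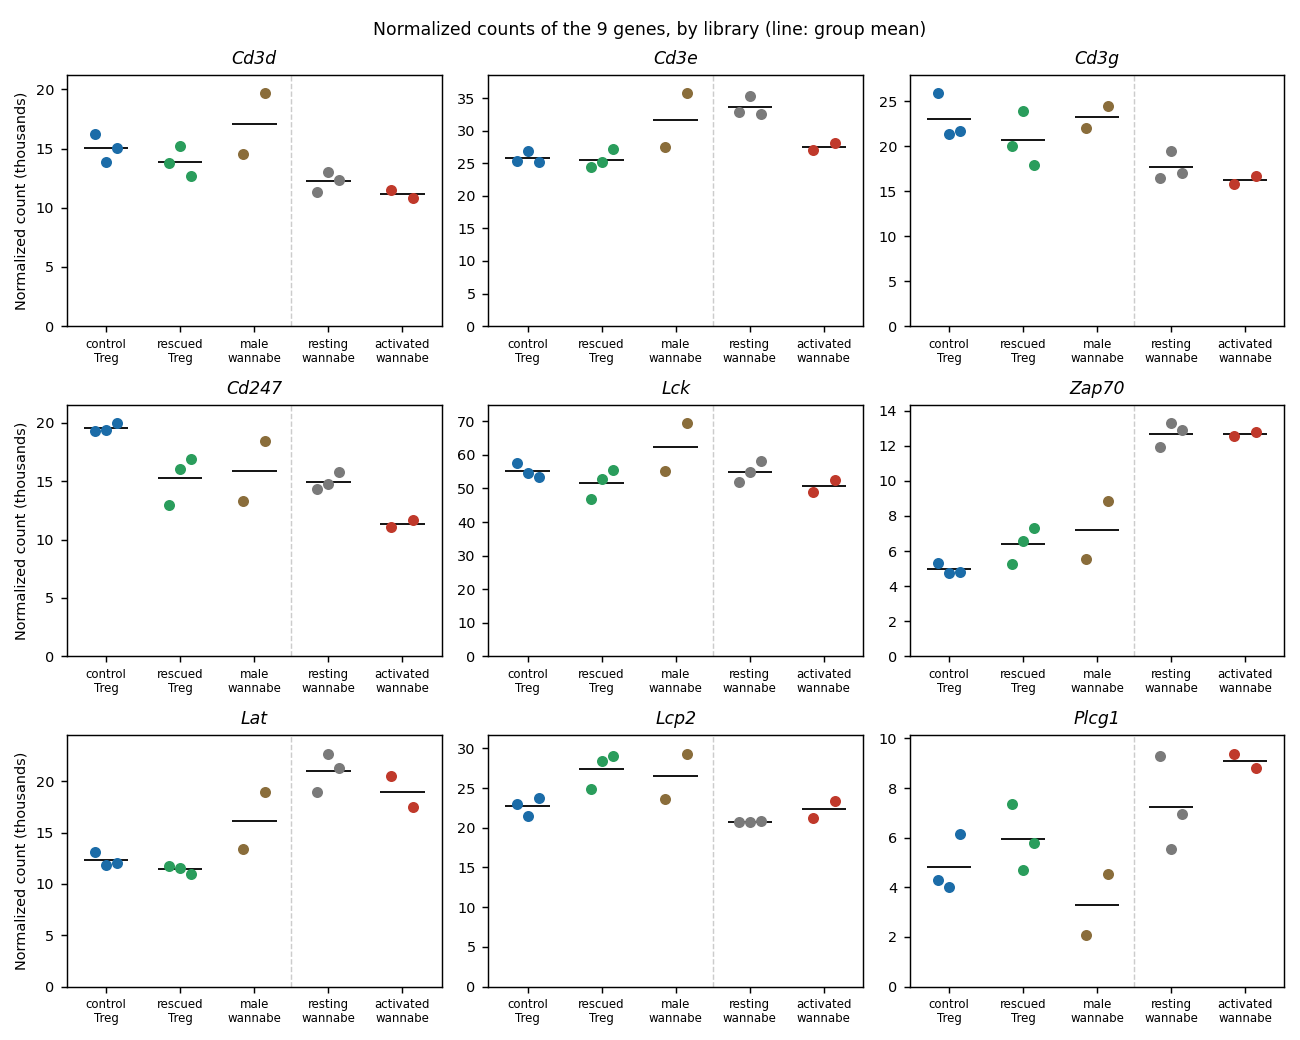
Normalized counts (scaled as the axes say, all starting at 0) of the 9 genes in each of the 13 libraries, by group, with a line at the group mean; the dashed line divides male (left) from female (right) libraries. *Cd3e* and *Cd247* lay lower in both activated than in all 3 resting “wannabe” libraries, and the 2 male “wannabe” libraries stood apart from each other for most genes.

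Rescued Treg cells were compared with control Treg cells to ask whether cells that acquired Foxp3 late, in inflamed mice, differ from Treg cells of healthy mice. None of the 9 genes passed an adjusted p of 0.05 in edgeR's quasi-likelihood test, in which 2.30% of 14925 genes did, and 0 of 9 did so in DESeq2, while 1, *Cd247*, had an unadjusted p under 0.05. The log2 fold changes lay between -0.35 and 0.36, with a median of -0.093 against -0.025 over all genes tested. For 3 of the 9 the libraries did not overlap, as for 24.2% of all genes.

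Among the signalling chains, *Cd3e* was nearly level. Its normalized counts were 25284, 26954 and 25260.1 in control and 24374, 25199 and 27137 in rescued Treg libraries (log2 fold change -0.016 ± 0.13 (SE), 95% interval -0.30 to 0.27). *Cd3d* (log2 fold change -0.12 ± 0.15 (SE)) and *Cd3g* (log2 fold change -0.16 ± 0.15 (SE)) overlapped between the groups as well. *Cd247*, the ζ chain, had 19267, 19373 and 19959.5 normalized counts in control and 12959, 16060.4 and 16868 in rescued Treg libraries (log2 fold change -0.35 ± 0.16 (SE), adjusted p = 0.291). The 3 control libraries had a coefficient of variation of 1.91%, and all rescued libraries lay below them, the lowest being replicate 1. *Pou2f1*, which shares exonic bases with *Cd247*, had 2011 to 2992 normalized counts in control and 1574 to 1922 in rescued libraries, and the part of that overlap in the *Cd247* value was not tested.

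For the kinases, *Lck*, which phosphorylates the receptor chains, had 53319 to 57560.4 normalized counts in control and 46922 to 55585 in rescued libraries (log2 fold change -0.093 ± 0.13 (SE)). *Zap70* had 5307, 4772 and 4809.7 in control and 5275, 6565 and 7301 in rescued libraries (log2 fold change 0.36 ± 0.19 (SE), adjusted p = 0.403). Rescued replicate 1 lay within the control range and the other two above it. Of the adaptors, *Lcp2* had 23042, 21506 and 23722 in control and 24830.4, 28472 and 28991 in rescued libraries (log2 fold change 0.27 ± 0.13 (SE), adjusted p = 0.344), all rescued libraries being higher. *Lat* had 11857 to 13084 in control and 10935 to 11756 in rescued libraries, lower without overlap by a small step (log2 fold change -0.11 ± 0.15 (SE), adjusted p = 0.806). *Plcg1* varied most among the libraries of each of these groups, with 4295, 4028 and 6141 in control and 7377, 4696 and 5786 in rescued libraries (log2 fold change 0.30 ± 0.28 (SE)), and its 95% interval of -0.32 to 0.92 spans both directions.

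Control Treg cells were compared with male “wannabes”, healthy against diseased mice and Foxp3-sufficient against Foxp3-deficient cells at once. Again 0 of 9 genes passed in edgeR (16.2% of 14925 genes did, 9.92% higher and 6.27% lower in Treg cells) and 0 of 9 in DESeq2, with 2 at an unadjusted p under 0.05, *Zap70* and *Lat*. Log2 fold changes ran from -0.53 to 0.55, with a median of -0.18 beside 0.089 over all genes, and 4 of the 9 did not overlap against 46.1% of all genes. These values rest on 2 “wannabe” libraries that differed from each other: replicate 2 was higher than replicate 1 for all 9 members, as a ratio by the least for *Cd3g* (22003 and 24419.6) and by the most for *Plcg1* (2060.2 and 4549.9).

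*Zap70* had 5307, 4772 and 4809.7 normalized counts in control Treg and 5529.9 and 8879 in “wannabe” libraries (log2 fold change -0.53 ± 0.21 (SE), adjusted p = 0.115), and *Lat* had 13084, 11857 and 12023 and 13404 and 18915 (log2 fold change -0.39 ± 0.16 (SE), adjusted p = 0.132). Both were lower in every Treg library. So was *Cd3e*, with 25284, 26954 and 25260.1 against 27560.0 and 35759 (log2 fold change -0.29 ± 0.14 (SE), adjusted p = 0.197). *Cd247* went the other way, with 19267, 19373 and 19959.5 in control Treg and 13275 and 18414 in “wannabe” libraries (log2 fold change 0.30 ± 0.17 (SE), adjusted p = 0.263). *Cd3d*, *Cd3g*, *Lck*, *Lcp2* and *Plcg1* overlapped between the groups. Without “wannabe” replicate 1, *Cd3e* (log2 fold change -0.47, adjusted p = 0.0481), *Lat* (-0.62, adjusted p = 0.0220) and *Zap70* (-0.84, adjusted p = 0.0191) passed in edgeR, and without replicate 2 *Plcg1* did so (1.18, adjusted p = 0.0302). These fits hold a lone “wannabe” library, which is assumed to vary like the Treg libraries. Over all fits without 1 library the log2 fold changes were -0.47 to -0.14 for *Cd3e*, -0.62 to -0.17 for *Lat*, -0.84 to -0.20 for *Zap70* and 0.082 to 1.18 for *Plcg1*, so that their size depended on which “wannabe” library was kept.

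Rescued Treg cells and male “wannabes” come from mice with the same *Foxp3* allele and the same drug, with and without Cre. This comparison shares its “wannabe” libraries with the previous one and its rescued libraries with the first. In edgeR 0 of 9 members passed, beside 14.1% of 14925 genes (10.0% higher and 4.06% lower in rescued cells), 2 had an unadjusted p under 0.05, and 1 of 9, *Lat*, passed in DESeq2 (adjusted p = 0.0250). The median log2 fold change was -0.17 against 0 over all genes, and 3 of the 9 did not overlap, against 42.7% of all genes. *Lat* had 11756, 11539 and 10935 normalized counts in rescued Treg and 13404 and 18915 in “wannabe” libraries (log2 fold change -0.50 ± 0.16 (SE), adjusted p = 0.0663), all rescued libraries lying lower. *Plcg1* had 7377, 4696 and 5786 against 2060.2 and 4549.9 (log2 fold change 0.85 ± 0.32 (SE), adjusted p = 0.111), and every rescued library lay higher. *Cd3e* was lower without overlap (log2 fold change -0.31 ± 0.14 (SE), adjusted p = 0.193).

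The other 6 members overlapped, with log2 fold changes between -0.30 for *Cd3d* and 0.051 for *Lcp2*. *Cd247*, which was lower in rescued than in control Treg libraries, did not differ from “wannabes” beyond its spread (log2 fold change -0.049 ± 0.17 (SE), 95% interval -0.43 to 0.33). Leaving out “wannabe” replicate 1 brought *Cd3e* (log2 fold change -0.48, adjusted p = 0.0457) and *Lat* (-0.73, adjusted p = 0.0109) past the threshold in edgeR, and leaving out replicate 2 brought *Plcg1* past it (1.49, adjusted p = 0.0126). Here too the lone “wannabe” library is assumed to vary like the Treg libraries, which alone supply the spread. Over all fits without 1 library the log2 fold changes were -0.48 to -0.15 for *Cd3e*, -0.73 to -0.28 for *Lat* and 0.39 to 1.49 for *Plcg1*.

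Activated “wannabes”, from female mice whose Treg cells had been removed, were compared with resting “wannabes” to ask how inflammation alters these cells when Foxp3 is absent. Here 2 of 9 members passed the test, *Cd3e* and *Cd247*, both lower in activated cells. Over all genes 22.5% of 13166 passed, 11.3% higher and 11.2% lower, so 2 of 9 is close to the share over all genes. The members' median log2 fold change was -0.12 (-0.0073 over all genes), and 3 of 9 did not overlap, against 56.6%.

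*Cd3e*, whose chain pairs with both the δ and the γ chain, had 32943, 35314 and 32595 normalized counts in resting and 26966 and 28166 in activated “wannabe” libraries. Both activated libraries lay below all resting ones, 1.22-fold lower (log2 fold change -0.29 ± 0.072 (SE), 95% interval -0.46 to -0.12, adjusted p = 0.0320, edgeR's quasi-likelihood test). *Cd247* had 14346, 14730.3 and 15815 in resting and 11039 and 11694 in activated libraries, 1.32-fold lower and again without overlap (log2 fold change -0.40 ± 0.078 (SE), 95% interval -0.59 to -0.21, adjusted p = 0.0158). *Pou2f1* had 1593 to 1766 in resting and 1228 to 1457 in activated libraries, and its part in the *Cd247* value was not tested. *Cd3d* (11374, 13009 and 12357 against 11518 and 10857, log2 fold change -0.13 ± 0.085 (SE)) and *Cd3g* (16437, 19445 and 17009.7 against 15828 and 16719, log2 fold change -0.12 ± 0.094 (SE)) overlapped between the groups, and their 95% intervals, -0.34 to 0.069 and -0.34 to 0.10, include the change of *Cd3e*.

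With activated replicate 1 left out, *Cd3e* (adjusted p = 0.193) and *Cd247* (0.131) no longer passed in edgeR. With activated replicate 2 left out the adjusted p-values were 0.130 and 0.0877, the lone activated library being assumed to vary like the resting ones. Over all fits without 1 library the log2 fold changes were -0.33 to -0.25 for *Cd3e* and -0.45 to -0.36 for *Cd247*. Without resting replicate 1, *Cd247* passed, *Cd3e* had an adjusted p of 0.0588 and *Plcg1* passed (log2 fold change 0.55, adjusted p = 0.0380). Markers of other cells stood mostly higher in activated libraries. The B cell marker *Cd79b* had 223 to 260.5 normalized counts in resting and 604 to 651 in activated libraries, and *Ms4a1* had 5.18 to 12.6 and 0.946 to 3.83. The 7 myeloid markers summed to 47.4 to 154 and 165 to 280.1, the 4 NK cell markers to 163 to 272 and 252 to 357 and the 2 CD8 markers to 288 to 412 and 424 to 473. The cells had been sorted as CD8- and NK1.1-. The part of these markers in the *Cd3e* and *Cd247* values was not tested.

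The kinase genes were close between the 2 female groups. *Zap70* had 11923, 13276 and 12888 normalized counts in resting and 12564 and 12792 in activated libraries, and the 95% interval of its log2 fold change, -0.19 to 0.18, ran evenly to both sides of 0. *Lck* had 51922, 55029 and 58078 against 49085 and 52642 (log2 fold change -0.12 ± 0.078 (SE)). *Lat* had 18997, 22700.4 and 21286 against 20483 and 17484 (log2 fold change -0.15 ± 0.11 (SE)). These 3 overlapped between the groups. *Lcp2* had 20747, 20708 and 20919 in resting and 21236 and 23381 in activated libraries, higher without overlap but short of the threshold (log2 fold change 0.097 ± 0.072 (SE), adjusted p = 0.363). *Plcg1* had 9278, 5526 and 6958 against 9389.6 and 8814 (log2 fold change 0.32 ± 0.20 (SE), adjusted p = 0.282), with the activated libraries inside or just above the resting range.

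**Figure D3:**
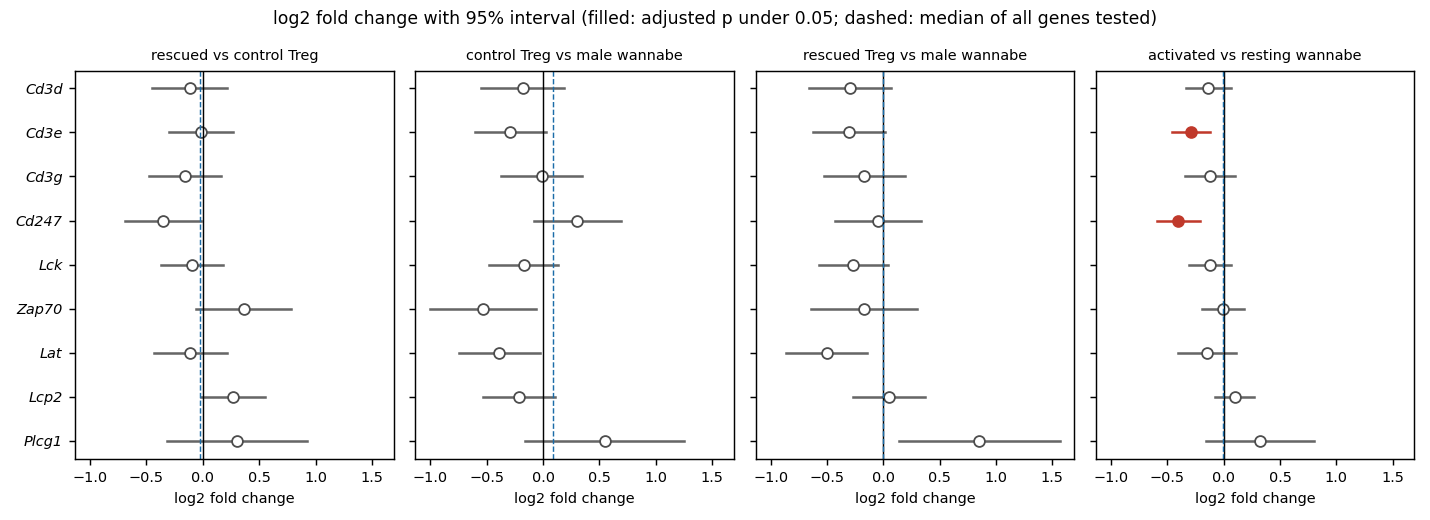
Log2 fold change (x axis) of each of the 9 genes in the 4 comparisons, with 95% intervals; filled points passed an adjusted p of 0.05 in edgeR and the dashed line is the median over all genes tested. The 2 filled points are *Cd3e* (-0.29) and *Cd247* (-0.40) in activated against resting “wannabes”, and *Plcg1* has the widest interval in every panel.

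Whether the members' change from control to rescued Treg cells differed from their change from resting to activated “wannabes” was tested over all 13 libraries. In edgeR 0 of 9 members differed, 0 of 9 at an unadjusted p under 0.05 and 0 of 9 in DESeq2, beside 1.53% of 15201 genes in edgeR. *Cd3e* showed a difference of 0.29 on the log2 scale (95% interval -0.069 to 0.65, adjusted p = 0.497), and *Cd247* one of 0.061 (-0.38 to 0.50, adjusted p = 0.958).

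Ratios between members within a library need no scaling between libraries and are given as descriptions. The log2 ratio of *Cd247* to *Cd3e* counts was -0.40 ± 0.069 (SD, n = 3) in control Treg, -0.75 ± 0.14 (SD, n = 3) in rescued Treg and -1.01 ± 0.068 (SD, n = 2) in male “wannabe” libraries. The 3 male groups did not overlap in this ratio, control Treg cells having the most *Cd247* per *Cd3e*. In female libraries it was -1.26 to -1.04 in resting and -1.29 to -1.27 in activated “wannabes”, both activated libraries lying just below the resting ones. *Lcp2* to *Cd3e* was -0.18 ± 0.13 (SD, n = 3) in control and 0.099 ± 0.075 (SD, n = 3) in rescued Treg libraries, and -0.69 ± 0.069 (SD, n = 3) in resting and -0.31 ± 0.054 (SD, n = 2) in activated “wannabes”. It was -0.28 to -0.22 in male “wannabes”, inside the range of control Treg libraries (-0.33 to -0.091), so that rescued Treg libraries lay above both other male groups. *Zap70* to *Cd3e* lay at -2.50 to -2.25 in control, -2.21 to -1.89 in rescued Treg and -2.32 to -2.01 in male “wannabe” libraries, the last overlapping both Treg groups, and at -1.47 to -1.34 in resting and -1.14 to -1.10 in activated libraries. In control Treg, rescued Treg and male “wannabe” libraries, *Cd3d* to *Cd3e* averaged -0.78, -0.88 and -0.89, and *Cd3g* to *Cd3e* -0.17, -0.32 and -0.44. The libraries of these groups overlapped in both ratios. In female libraries *Cd3d* to *Cd3e* was -1.53 to -1.40 in resting and -1.38 to -1.23 in activated “wannabes”, and *Cd3g* to *Cd3e* averaged -0.93 ± 0.071 (SD, n = 3) and -0.76 ± 0.011 (SD, n = 2), both higher in activated “wannabes” without overlap.

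Likeness of profile was measured as the root mean square difference of log2 CPM, centred within each experiment, over the 13 libraries. The closest other member was *Lck* for *Cd3e* (0.088), *Lat* for *Cd3d* (0.088), *Cd3d* for *Cd3g* (0.094), *Lck* for *Cd247* (0.18), *Lcp2* for *Zap70* (0.14) and *Lcp2* for *Plcg1* (0.43). A low value arises where a pair varies together and also where neither gene varies much. The value of *Plcg1* was the highest of the 9. Of 10231 genes outside the set with over 100 mean normalized counts in both experiments, *Med28*, *Pdrg1* and *Tecr* were closest to the mean of the 3 CD3 genes (0.061, 0.066 and 0.073). The members' own spread around their experiment mean ran from 0.13 for *Lck* to 0.45 for *Plcg1*, and 8 of the 9 lay below the median over those genes, 0.32. The libraries share their scaling, so these values are descriptions.

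Around the 9 genes, 49 other genes of the pathway were listed by role and 46 had values. In control Treg cells 12 of these 46 differed from male “wannabes” (7 higher, 5 lower, median log2 fold change 0.0060) and in rescued Treg cells 14 of 46 did (10 higher, 4 lower, median -0.057), beside 16.2% and 14.1% of all genes. By role, the calls in control Treg cells were 2 of 5 TCR chains and coreceptors, 1 of 11 further kinases and phosphatases, 3 of 17 adaptors and 6 of 13 genes listed as downstream of *Plcg1*, among them *Was* and *Wipf1*, whose products act on actin and are recruited through Nck and SLP-76. In rescued Treg cells they were 1 of 5, 3 of 11, 5 of 17 and 5 of 13. The libraries of male “wannabes” serve in both comparisons. *Ubash3b*, encoding the phosphatase STS-1 that acts on ZAP-70 and Syk, had 5321 to 6198 normalized counts in control Treg, 5292 to 7634 in rescued Treg and 898 to 1144 in “wannabe” libraries. It was 5.54-fold higher in control (adjusted p = 0.000176) and 6.36-fold higher in rescued Treg cells (adjusted p = 0.000202, edgeR).

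*Rasgrp1*, the diacylglycerol-bound activator of Ras, had 13101 to 13622 in control Treg, 11857 to 15414 in rescued Treg and 5019.5 to 5296 in “wannabe” libraries (log2 fold change 1.37 and 1.38). *Prkcq*, protein kinase C θ, had 17398 to 19914, 19058 to 25877 and 8969 to 9124 in the same order (1.07 and 1.34). *Itpkb*, a kinase that converts the calcium-releasing messenger IP3, had 4762 to 8068, 3852 to 8142 and 808 to 1767 (2.31 and 2.05). All 3 were higher in each Treg library than in either “wannabe” library. *Orai1*, the pore of the calcium channel, was also higher (1.35 and 2.02), but its call against control Treg cells was lost without each of the control libraries in turn and without “wannabe” replicate 1, with log2 fold changes down to 0.96. *Was*, the actin regulator WASP, was lower in both Treg groups (1289.9 to 1684 and 1024 to 1257 against 2634 to 3441, -1.06 and -1.40).

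The coreceptor gene *Cd4* had 13341, 14292 and 12821 normalized counts in control Treg, 14564, 16294 and 16837 in rescued Treg and 31703 and 45085 in “wannabe” libraries. It was lower in both Treg groups (log2 fold change -1.51 ± 0.16 (SE) and -1.27 ± 0.16). These groups carry the creERT2 allele of *Cd4* and the “wannabes” do not, so allele and group cannot be told apart. Of these calls, 7 of 12 in control and 7 of 14 in rescued Treg cells held in every fit that left out 1 library. *Ubash3b*, *Rasgrp1*, *Prkcq*, *Itpkb*, *Was* and *Cd4* were among these in both comparisons, with *Dok2* in the first and *Orai1* in the second. Without control replicate 1 the count in control Treg cells was 7, and without “wannabe” replicate 2 the count in rescued Treg cells was 8.

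Between rescued and control Treg cells 2 of 46 pathway genes passed in edgeR (median 0.020), against 2.30% of all genes. *Nck2*, an adaptor that links SLP-76 to the cytoskeleton, had 2177, 1850.1 and 2603 in control and 5745, 4156 and 6675 in rescued libraries, 2.5-fold higher (adjusted p = 0.00954). *Txk*, a Tec-family kinase that acts on PLCγ1, had 4779, 4939.7 and 4747 in control and 2967, 2979 and 2793 in rescued libraries, 1.66-fold lower (adjusted p = 0.0264). Neither gene overlapped between the groups. *Nck2* lost its call without control replicate 1, when 0 of 46 passed, its log2 fold change lying between 1.16 and 1.50 over such fits, and *Txk* lost its own without each of the 6 Treg libraries in turn, leaving 1 of 46 or fewer, its log2 fold change staying between -0.74 and -0.70.

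In activated “wannabes” 16 of 46 pathway genes passed, 6 higher and 10 lower than in resting “wannabes”. The share, like that of the members, stands beside 22.5% of all genes, and the median was 0.064. By role the calls were 1 of 5 chains and coreceptors, 4 of 11 kinases and phosphatases, all of these lower, 6 of 17 adaptors and 5 of 13 genes downstream of *Plcg1*. *Tec*, the founding Tec-family kinase, went from 1608, 1728 and 1356 normalized counts in resting to 515 and 669 in activated libraries, 2.65-fold lower (adjusted p = 0.00259). *Ubash3b* went from 3402, 4085 and 3838 to 1529 and 1571, 2.44-fold lower (adjusted p = 0.000770). The adaptor genes *Nck2* (1448 to 1929.9 normalized counts in resting and 3030.2 to 3179 in activated libraries, log2 fold change 0.85), *Dok2* (0.74) and *Themis* (0.71) rose, as did *Itpr1*, the IP3 receptor (0.84), and *Orai1* (0.72). *Tec*, *Ubash3b*, *Dok2*, *Itpr1* and *Grap2*, 5 of the 16, passed in every fit that left out 1 library, and only these 5 passed when either activated library was left out. *Orai1* was lost without resting replicate 3 as well.

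**Figure D4:**
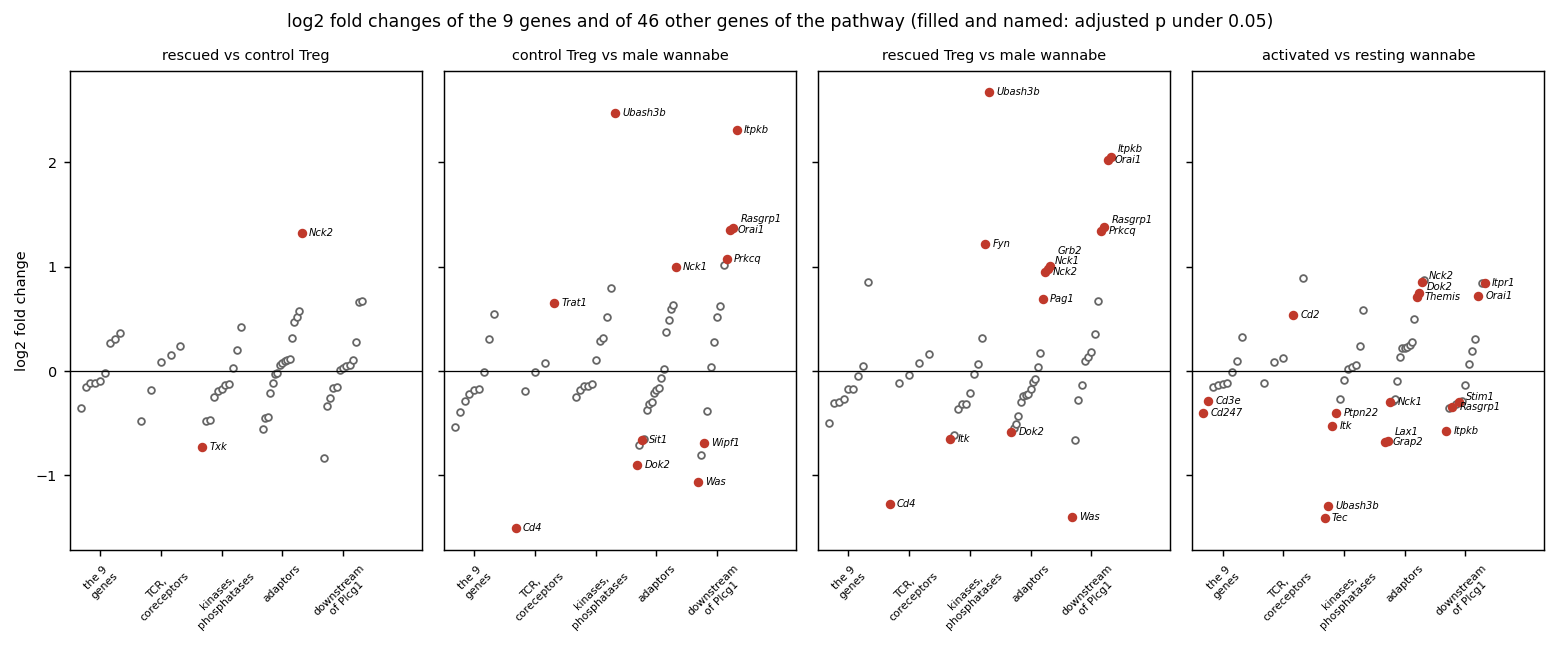
Log2 fold changes (y axis) of the 9 genes and of 46 other genes of the TCR pathway, by role, in the 4 comparisons; each point is a gene, and filled, named points passed an adjusted p of 0.05 in edgeR. The 9 genes lie between -0.53 and 0.85 over the 4 panels, and *Ubash3b* lies at 2.47 and 2.67 in the panels against male “wannabes” and at -1.29 in activated against resting “wannabes”.

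The counterparts of these genes in other leukocytes were measured beside the members: 0, 2 and 1 of 7 passed between rescued and control Treg cells, control Treg cells and male “wannabes”, and rescued Treg cells and male “wannabes”, and 3 of 6 between activated and resting “wannabes”, beside 2.30%, 16.2%, 14.1% and 22.5% of all genes. The calls were *Plcg2*, the relative of *Plcg1*, lower and *Lyn* higher in control Treg cells, *Lyn* higher in rescued Treg cells, and *Syk* and *Plcg2* higher and *Btk*, a Tec-family kinase, lower in activated “wannabes”. *Plcg2* had 0 to 20.9 normalized counts in control Treg and 78.8 to 354 in male “wannabe” libraries, a call lost without control replicate 3 and without “wannabe” replicate 1 (log2 fold change -7.08 to -3.29 over fits without 1 library). *Btk* had 30.5 to 62.1 in resting and 2.84 to 12.4 in activated libraries, a call that held in 0 of 5 fits without 1 library (-3.87 to -1.78), and that of *Plcg2* there held in 1 of 5. *Syk*, the relative of ZAP-70 used by B and myeloid cells, had 18.9, 11.2 and 28 normalized counts in resting and 214 and 319 in activated libraries, 13.7-fold higher (adjusted p = 0.00173), and it passed without each library in turn. In the same activated libraries *Zap70* had 12564 to 12792. The part of the B cell and myeloid markers, whose levels are given above, in the *Syk* value was not tested. *Lyn*, a Src-family relative of *Lck*, had 429, 476 and 791 in control Treg and 93 and 48.6 in male “wannabe” libraries, 7.96-fold higher (adjusted p = 0.00333). In rescued Treg libraries it had 173, 304 and 174, 3.05-fold above “wannabes” (adjusted p = 0.0457), a call that held in 1 of 8 fits without 1 library. In the male libraries the 4 NK cell markers summed to 20 to 52 in control Treg, 121 to 288 in rescued Treg and 180.3 to 300.1 in “wannabe” libraries, and the 7 myeloid markers to 155 to 383, 244 to 451 and 91.1 to 227. Of the B cell markers, *Cd79b* had 715 to 979, 1049 to 1246 and 986 to 1213 normalized counts in the same groups. *Cd79a* had 182 to 336, 123 to 292 and 148 to 232. The 5 B cell markers with values summed to 1051 to 1300, 1251 to 1390 and 1134 to 1450, ranges that overlap. The cells had been sorted as NK1.1-, and the part of these markers in the values of the members and of *Lyn* was not tested.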

How the data were processed

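Bulk RNA-seq of doubly sorted cells was used from 8 male and 5 female mouse libraries. Libraries were assigned to groups by their titles, and the columns of the count tables were matched to them by genotype, sorted reporter and replicate number. The submitters' design text gives the replicate numbers of resting and activated “wannabe” groups the other way round from the titles, genotypes and methods, which were followed, and the direction of every activated against resting value rests on that. The authors made cDNA with the SMART-Seq v4 kit, mapped reads to GRCm38 with STAR 2.7.3a, and tallied them by gene. What they deposited are whole-number raw counts. The annotation and strand setting of the counting are not given in the sources used here. Of 24421 entries, 4 carried no gene name (0.0035% to 0.0084% of counts) and were left out. Total counts were 25558402 to 36660933 per library. The reads carry no molecular identifiers, and p-values measure the spread between these libraries, which the methods call biological replicates.

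Tests used edgeR 4.0.16 in R 4.3.3 (TMM, filterByExpr, quasi-likelihood F test), with Benjamini-Hochberg adjustment over all genes tested at 0.05. One fit held the 8 male libraries and another the 5 female ones, and a fit of all 13 gave the difference of changes. Normalized counts are scaled by TMM within an experiment, and log2 CPM used a prior count of 2. Alternatives were DESeq2 1.42.0, its size factors, upper quartile and total count scaling, no filter, a mean normalized count over 100, the replicate number as a block, only the 2 groups compared, and leaving out each library. The fitting code was tested on simulated data. The members and lists were chosen with earlier results of these data known. Named were all 9 members in every comparison; of the other pathway genes and counterparts, at most the 8 with the largest change among those past the threshold with over 100 mean normalized counts; and the 3 genes nearest the CD3 profile. A listed gene is not reported here. *Grap2*, *Wipf1*, *Plcg2*, *Btk*, *Pou2f1* and the markers *Cd79a*, *Cd79b*, *Itgam* and *Klrb1c* were named after their values were seen. Lengths and positions are from GENCODE M21 and promoters from RefSeq (GRCm38.p6).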

Additional observations from a re-analysis of the deposited data

Results flagged for a closer look

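A change that differed between the 2 experiments was sought by the contrast of rescued against control Treg cells with activated against resting “wannabes”. It was found for 1 of 46 other pathway genes and 1 of 8 counterparts in other leukocytes, beside 1.53% of 15201 genes. *Ubash3b* differed by 1.50 on the log2 scale (95% interval 0.99 to 2.02, adjusted p = 0.00814 in edgeR), its level being 5643 ± 482 (SD, n = 3) normalized counts in control and 6485 ± 1172 (SD, n = 3) in rescued Treg libraries against 3775 ± 346 (SD, n = 3) in resting and 1550.0 ± 29.2 (SD, n = 2) in activated “wannabe” libraries. It passed in 11 of 13 fits that left out 1 library, and not without either activated library. *Syk* differed by -4.25 (95% interval -5.79 to -2.71, adjusted p = 0.0120), with 138 to 326 normalized counts in control and 127 to 198 in rescued Treg libraries against 11.2 to 28 in resting and 214 to 319 in activated “wannabe” libraries. It passed in 12 of 13 such fits, and not without activated replicate 2. Sex, age and drug differ between the experiments, which have separate count tables. The change between Treg groups is among Foxp3-sufficient cells, and that between “wannabe” groups among Foxp3-deficient ones. None of these can be told apart from the differences in *Ubash3b* and *Syk*.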

How the results depend on the processing

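For the members, the count past the threshold was the same under every setting that kept all libraries, except that 1 gene, *Lat*, passed between rescued Treg cells and male “wannabes” with DESeq2, upper quartile scaling or total counts (adjusted p = 0.0250, 0.0306 and 0.0424). Leaving out 1 library, the members called numbered 0 to 3 between control Treg cells and male “wannabes”, 0 to 2 between rescued Treg cells and male “wannabes”, and 0 to 2 between activated and resting “wannabes”. The other pathway genes called numbered 0 to 2, 7 to 14, 8 to 15 and 5 to 18 in the 4 comparisons, and 9 where only rescued Treg and “wannabe” libraries were fitted. Log2 fold changes near 0 changed sign. *Cd3e* between rescued and control Treg cells came to 0.0011 with DESeq2, 0.0011 with its size factors and 0.047 with a mean count over 100. *Lcp2* between rescued Treg cells and “wannabes” came to -0.025 with upper quartile scaling and *Cd247* to 0.017 with a mean count over 100. *Cd3g* between control Treg cells and “wannabes” came to 0.046 with total counts, *Cd247* in the difference of changes to -0.011, and *Zap70* between activated and resting “wannabes” to 0.0048 with a mean count over 100. The cause was not tested. Over fits without 1 library, *Cd3e* between rescued and control Treg cells ranged over -0.060 to 0.018. Between control Treg cells and “wannabes”, *Cd3d* ranged over -0.39 to 0.0070 and *Cd3g* over -0.11 to 0.041. Between rescued Treg cells and “wannabes”, *Cd247* ranged over -0.27 to 0.16, *Lcp2* over -0.099 to 0.17 and *Zap70* over -0.48 to 0.16, and between activated and resting “wannabes” *Zap70* over -0.042 to 0.026. Whether replicate numbers pair the samples was not settled. Same-numbered libraries of different groups had deviations from their group means correlated at -0.074 to 0.30 (9 pairs), other pairs at -0.30 to 0.22 (18 pairs). With so few libraries in a group, deviations from its mean mirror each other, so these values cannot decide it. With the replicate block, 0, 0, 0 and 2 members and 2, 14, 13 and 14 pathway genes passed in the 4 comparisons, 0 members in the difference of changes, *Cd3g* between control Treg cells and “wannabes” came to 0.061 and *Zap70* between activated and resting “wannabes” to 0.0076. Over all genes, DESeq2 called 1195 between rescued and control Treg cells where edgeR called 343, 3751 and 3316 against male “wannabes” (2416 and 2105 in edgeR), 3786 between activated and resting “wannabes” (2958) and 792 in the difference of changes (233). In edgeR the first of these came to 612 without the filter on low counts and 580 with those 2 groups alone. With 1 library left out the 5 counts ranged over 114 to 598, 1549 to 2423, 1570 to 1959, 751 to 3215 and 44 to 430. The lowest value of any member in a library was 2060.2 normalized counts. The spread between libraries was larger in the male experiment (common biological coefficient of variation 0.51) than in the female one (0.171).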
